A study of Glycine max with 8 samples.

Results

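Open chromatin of soybean leaf and flower was compared as lists of MNase hypersensitive sites, short stretches of DNA that micrococcal nuclease frees under light digestion. The comparison used 4 of the 8 libraries of the series, leaf 1, leaf 2, flower 1 and flower 2, which together list 261921 of the 442104 sites deposited over 4 tissues. The reproducible regions of a tissue were the stretches of at least 20 bp listed in both of its libraries, which gave 61056 regions in leaf and 37701 in flower. Each region was then placed by what the other tissue listed there. It was called shared when it met a reproducible region of the other tissue by at least 1 bp, without a counterpart when it met no site of either library of the other tissue, and intermediate otherwise. All libraries came from the cultivar Williams 82 and from chromatin fixed with 1% formaldehyde. Leaf libraries were made from 0.5 g of ground trifoliate leaves of greenhouse seedlings at stage V2 (12 h of light at 28 °C, nights at 25 °C). Flower libraries were made from 1 g of ground flowers of plants at stage R1 grown in a field. Tissue, stage, growth place and amount of powder therefore changed together and cannot be told apart. Nothing in the labels says that the 2 libraries per tissue are from different plants, so any p-value reflects only how these libraries vary, which may be technical.

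Most nuclear DNA is wrapped around histones, and the stretches left accessible are typically promoters, enhancers and other places where transcription factors bind. Leaves and flowers of a plant carry the same genome, and the organs of a flower are generally understood as modified leaves. A large common set of accessible DNA beside organ-specific stretches is the usual picture in plants. In soybean the gene-rich arms of the chromosomes flank long repeat-rich middle parts. No source used here names the genome build behind the coordinates, so regions are named by chromosome, start and end, counting from 1, without genes, annotation or sequence. For the same reason, and because site lists carry no expression, the tissue labels could not be checked against marker genes.

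The leaf lists were longer than the flower lists. They held 75471 and 74278 sites over 17.3 and 16.3 Mb, against 50078 and 62094 sites over 9.59 and 12.4 Mb in flower 1 and flower 2. The read depth behind each list is unknown, so the absence of a site does not show that the chromatin was closed, and counts of missing sites move with list length. The score that accompanies each site is the authors' own value without a stated definition. Its highest value was 39.9, 82.1, 127 and 16.8 in leaf 1, leaf 2, flower 1 and flower 2, so it was used only as a rank within its own list.

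Most flower regions lay where leaf was open too, and most of the leaf regions did not have a reproducible flower counterpart. Of the flower regions, 30842 (81.8%, 95% Wilson interval 81.4 to 82.2) were shared with leaf, 3398 (9.01%) were intermediate and 3461 (9.18%, 8.89 to 9.48) met no leaf site. Of the leaf regions, 29613 (48.5%, 48.1 to 48.9) were shared with flower, 15499 (25.4%) were intermediate and 15944 (26.1%, 25.8 to 26.5) met no flower site. The intervals cover counting error over regions only and say nothing of the variation between libraries. The shares moved with list length. With the 50078 highest-scoring sites of every list, 58.6% of the leaf regions and 71.8% of the flower regions were shared, and 7512 leaf regions (18.9%) and 5263 flower regions (15.4%) had no counterpart. The intermediate leaf regions met flower 2 alone in 10628 cases and flower 1 alone in 4485, and 386 met both without meeting a reproducible flower region. Without flower 2 the number of leaf regions with no flower site was 26572, and without flower 1 the number of flower regions with no leaf site was 12901, since every site of flower 2 then counted as a region. The cutoff of 20 bp mattered little: intersections from 20 bp to under 30 bp numbered 189 in leaf and 220 in flower, and those from 10 bp to under 20 bp, just outside it, 158 and 190.

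Where both tissues had a region, the regions lay on nearly the same centre but the leaf sites were wider. The shared regions formed 27671 positions with a single leaf and a single flower region, whose centres lay a median of 22.5 bp apart and within 50 bp at 79.4% of the positions. In 1453 cases a leaf region held several flower regions, up to 4, and in 264 cases a flower region held several leaf regions. At the 27671 positions the median site width was 264 bp in leaf 1, 250 bp in leaf 2, 200 bp in flower 1 and 217 bp in flower 2. Both leaf values lay above both flower values. The flower region lay wholly inside the leaf region at 49.9% of the positions, and the leaf region inside the flower region at 9.33%. Both leaf sites were wider than both flower sites at 12026 positions (43.5% of 27671), and both flower sites were wider than both leaf sites at 2182 (7.89%).

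**Figure D1:**
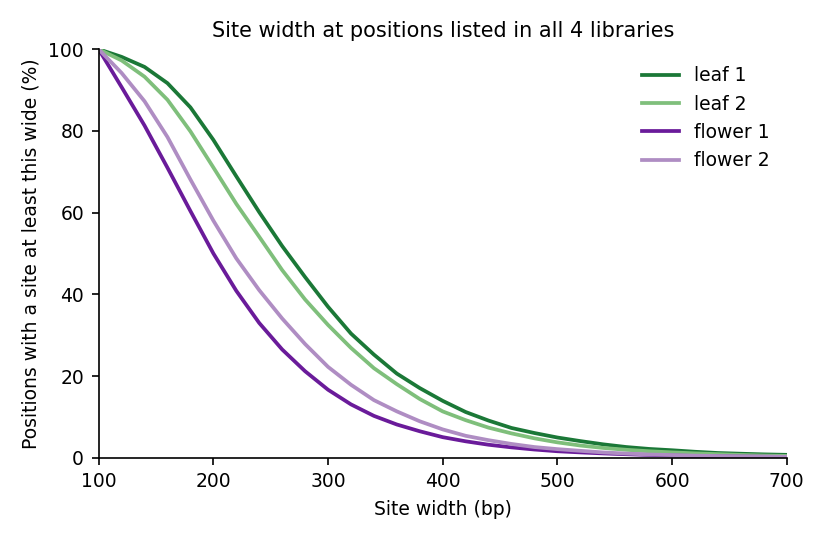
Share of the 27671 positions with a single leaf and a single flower region (vertical axis, percent) at which a library's site was at least as wide as the value on the horizontal axis (bp). The curves of leaf 1 (median 264 bp) and leaf 2 (250 bp) run to the right of those of flower 1 (200 bp) and flower 2 (217 bp).

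Over the whole lists the order was the same. The median width of a site was 201 and 190 bp in the leaf lists, a mean of 195.5 ± 7.78 bp (SD, n = 2), and 167 and 172 bp in flower, a mean of 169.5 ± 3.54 bp (SD, n = 2). The difference of 26 bp was larger than the spread between libraries, although an exact two-sided permutation test of 2 libraries against 2 cannot go below p = 0.33, the value it gave. With equal list lengths the medians were 242 and 228 bp in leaf and 167 and 188 bp in flower, a difference of 57.5 bp. That setting kept the highest-scoring sites, so it cut the leaf lists most and left the flower list at 167 bp whole. Width rose with score: the median of shared leaf regions was 107.5 bp under percentile 10 and 314 bp above percentile 90. Trimming by score therefore favours wide sites in the cut lists, and the larger difference cannot be read as a stronger tissue difference. The part of sequencing depth in site width was not tested.

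The ranking of the shared positions differed more between the tissues than between the leaf libraries. Over the 27671 positions, Spearman's rho of the score percentiles was 0.70 between leaf 1 and leaf 2 and 0.50 between flower 1 and flower 2, and it ran from 0.37 (leaf 2 with flower 1) to 0.45 (leaf 1 with flower 2) between tissues. For site widths rho was 0.75 within leaf, 0.51 within flower and 0.43 to 0.51 between tissues. The width order of leaf 2 and flower 2 was thus as similar as that of the flower libraries. These values describe positions that all 4 libraries had to list. The read depth of the libraries is unknown, and its part in these values was not tested. Of the 5271 such positions above percentile 90 in leaf by the mean of its libraries, 2085 (39.6%) were also above percentile 90 in flower, which is 58.0% of the 3592 flower positions.

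Overlap with the other tissue rose with score rank in both directions. The ranks come from the same lists that define the sets, so the values are a description. Among leaf regions with a mean score percentile under 10, 13.7% were shared with flower and 59.4% met no flower site. Between percentiles 50 and 60 the shares were 40.7% and 28.3%, and above percentile 90 they were 93.0% and 2.08%. Flower regions began higher, with 54.4% shared and 28.9% without a leaf site under percentile 10, and reached 98.4% and 0.766% above percentile 90. Above percentile 90, 127 leaf regions met no flower site and 30 flower regions met no leaf site.

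**Figure D2:**
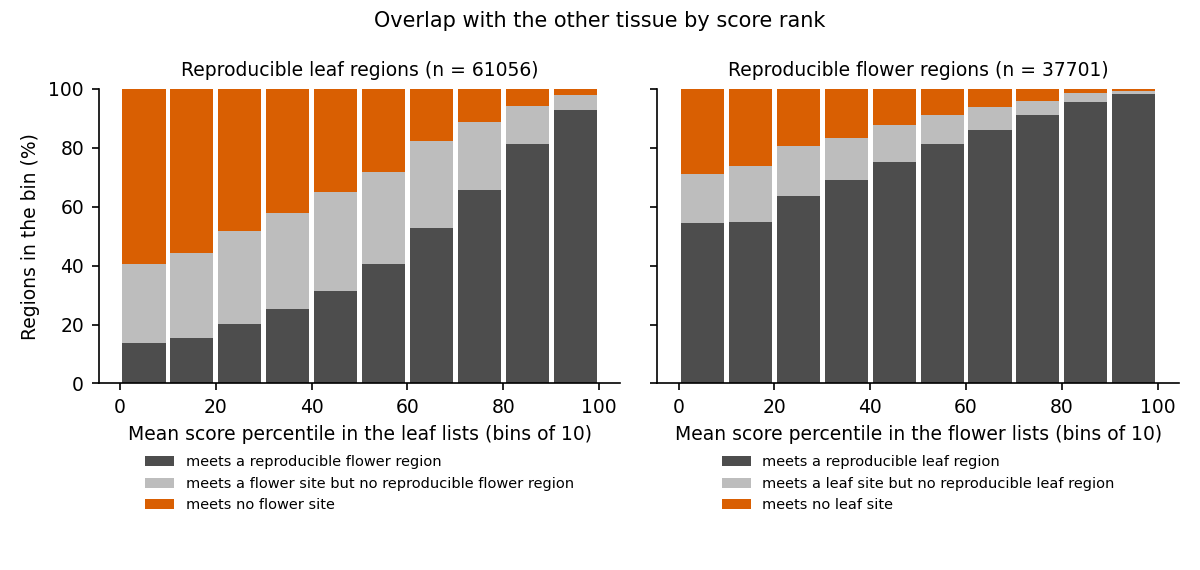
Share of the reproducible regions of leaf (left) and flower (right) in bins of 10 by mean score percentile within the tissue's own lists (horizontal axis) that were shared with the other tissue, intermediate, or without a site of the other tissue (stacked bars, percent). The shared part grows from 13.7% to 93.0% in leaf and from 54.4% to 98.4% in flower.

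Regions without a counterpart were narrow in both tissues. Their median width was 137 bp in leaf (quartiles 108 and 179), against 229 bp for shared leaf regions, and 112 bp in flower (93 and 139), against 165 bp for shared flower regions. Over 300 bp there were 649 leaf regions without a flower site (4.07%) and 12 flower regions without a leaf site (0.347%), against 7806 shared leaf regions (26.4%) and 2835 shared flower regions (9.19%). The order was the same in every score bin of leaf, and in flower in every bin but the lowest, where both medians were 101 bp. Between percentiles 80 and 90 the median was 242.5 bp without and 274 bp with a flower region in leaf, and 160.5 bp without and 213 bp with a leaf region in flower. The sets are defined by any overlap, which a wider region reaches more easily, so these widths are a description.

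Leaf regions without a flower site sat closer to other leaf regions than the shared ones did. The median gap to the nearest reproducible region of the same tissue was 1515 bp for them and 1916 bp for shared leaf regions, and 41.2% against 34.6% had a neighbour within 1 kb. In flower the medians were 2635 and 3050.5 bp, but the shares with a neighbour within 1 kb were close, at 29.4% and 29.0%. Many of these regions lay within a few kb of a site of the other tissue. The nearest flower site was a median of 1688 bp from a leaf region without a counterpart (quartiles 557 and 4783), and 1876 of them (11.8%) had one within 200 bp. For flower the nearest leaf site was a median of 1208 bp away, and 588 (17.0%) had one within 200 bp. More than 10 kb separated 1691 leaf regions (10.6%) and 238 flower regions (6.88%) from any site of the other tissue. Distances shorten as the other list grows, and the leaf lists are the longer ones.

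Such regions also followed each other along the chromosome. Runs of 3 or more neighbouring leaf regions with no flower site numbered 1014 and held 3605 regions (22.6% of the set). In flower 58 such runs held 189 regions (5.46%). The longest leaf runs counted 9 regions and occurred in 2 places, the first on chromosome 11 from 11564695 to 11645622, across 80.9 kb. The longest flower runs counted 4 regions, in 15 places, the first on chromosome 1 from 2797262 to 2873562. The leaf set makes up 26.1% of its regions and the flower set 9.18%, and the part of set size in run length was not tested.

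The seed and root lists, which took no part in choosing the sets, separated them as well. Of the leaf regions without a flower site, 54.6% met a site of seed 1 and 38.0% a site of seed 2, and 61.9% (95% Wilson interval 61.1 to 62.6) met at least 1 of them. Shared leaf regions met seed 1 in 89.8%, seed 2 in 69.6% and either in 92.3% (92.0 to 92.6), with intermediate regions between, at 79.2%. Flower regions without a leaf site met seed 1 in 39.4%, seed 2 in 26.8% and either in 47.4% (45.7 to 49.0), against 91.4% for shared flower regions. In each of the seed libraries the order was shared, intermediate, no counterpart for both tissues. Root sites, which are few, were met by 20.7% of the shared leaf regions and 5.49% of those without a flower site, and by 18.9% and 4.48% of the corresponding flower regions. Neither seed nor root listed a site at 5871 leaf regions (36.8% of those without a flower site) and 1777 flower regions (51.3% of those without a leaf site). The same held for 7.30% of the shared and 20.1% of the intermediate leaf regions, and for 8.19% and 32.0% of the corresponding flower regions. The intervals cover counting error only.

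Seed overlap was also set out by width. Of the regions from 200 bp to under 300 bp, seed met 95.7% of the shared leaf regions and 73.2% of the leaf regions without a flower site, and 96.3% and 67.2% of the corresponding flower regions, the last on 131 regions. From 300 bp the shares were 98.2% and 78.8% for leaf, and 98.4% (interval 97.8 to 98.8) and 92.3% for flower, the last on 13 regions with an interval of 66.7 to 98.6 that overlaps that of the shared ones. Seed overlap of leaf regions without a flower site climbed from 47.5% under percentile 10 to 92.9% above percentile 90 (118 of 127 regions, interval 87.1 to 96.2). For flower regions without a leaf site it went from 38.7% to 43.3% (13 of 30 regions, interval 27.4 to 60.8) and stayed at or under 57.6% in every bin. The leaf and flower sets were chosen against lists of different length, the intervals cover counting error only, and the difference between the tissues was not tested. Seed plants, like leaf seedlings, were raised in the greenhouse and flower plants were not, so growth place and tissue cannot be told apart here either.

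**Figure D3:**
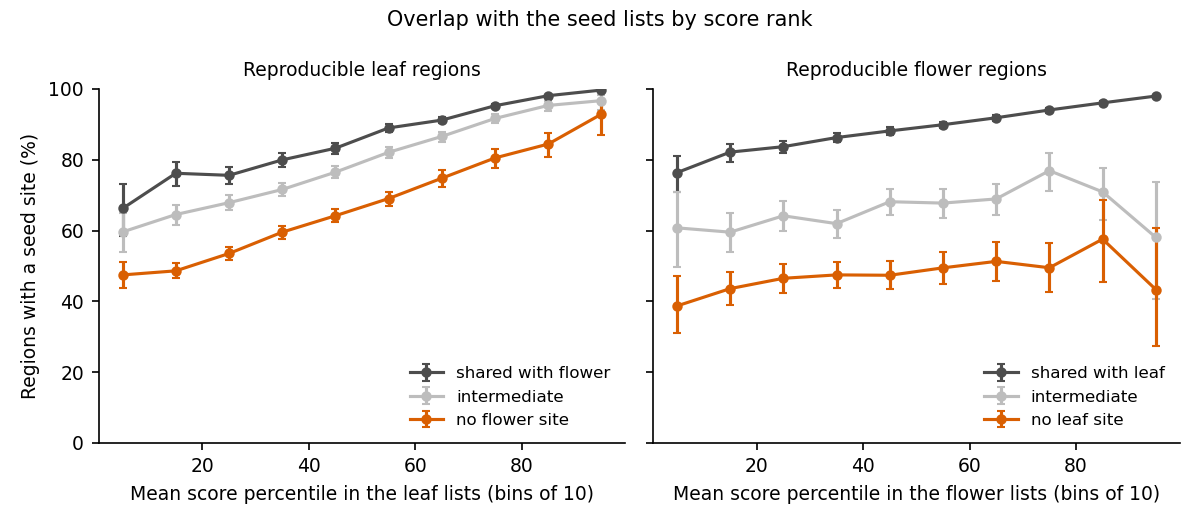
Share of reproducible leaf regions (left) and flower regions (right) that met a site of either seed library (vertical axis, percent), by mean score percentile within the tissue's own lists (horizontal axis, bins of 10) and by overlap with the other tissue. Error bars are 95% Wilson intervals. The regions without a site of the other tissue rise to 92.9% in leaf and end at 43.3% in flower.

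The 5 leaf regions without a flower site that ranked highest by score lay on 5 chromosomes. The first lay at chr1:25489868-25490022 (155 bp), at percentile 99.9 of scores in leaf 1 and 99.8 in leaf 2. Its leaf 1 site was 476 bp wide and its leaf 2 site 155 bp, and the nearest flower site was 122 bp away. The whole leaf 1 site met a flower site, so the region was no longer in the set without leaf 2. The next lay at chr4:33844099-33844339 (241 bp) and chr15:9986276-9986412 (137 bp), followed by chr18:6401192-6401341 (150 bp) and chr5:33406061-33406425 (365 bp). All 5 met a seed site, and the one on chromosome 15 met both root libraries too. The region on chromosome 5 stood farthest from flower sites, with the nearest at 10038 bp, and ranked at percentiles 99.7 and 98.2 in leaf 1 and leaf 2.

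The longest leaf region without a flower site lay at chr8:39426244-39427048 and spanned 805 bp. Its site was 900 bp wide in leaf 1 and 822 bp in leaf 2, at percentiles 94.7 and 82.1, both seed libraries listed it, and the nearest flower site was 17936 bp away. It was followed by chr10:39051107-39051804 (698 bp), which neither seed nor root listed. The others were chr10:38787293-38787982 (690 bp), chr15:7390400-7391083 (684 bp) and chr3:42523925-42524604 (680 bp). The region on chromosome 15 ended 141 bp from a flower site.

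The 5 highest-scoring flower regions without a leaf site spanned 110 to 158 bp. The first lay at chr17:23599669-23599826 (158 bp), at percentile 99.8 in flower 1 and 99.5 in flower 2, and 1409 bp from the nearest leaf site. It was followed by chr13:3092416-3092534 (119 bp), chr6:43348095-43348222 (128 bp), chr1:41651803-41651915 (113 bp) and chr14:28069946-28070055 (110 bp). The last 3 were listed in neither seed nor root. The region on chromosome 14 lay 216107 bp from the nearest leaf site and that on chromosome 1 lay 65067 bp away. The region on chromosome 14 ranked at percentile 99.8 in flower 1 and 95.8 in flower 2.

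The longest flower region without a leaf site lay at chr10:46609805-46610179 (375 bp). A leaf site lay 26 bp away. The whole flower 2 site, 517 bp wide, met a leaf site, so the region left the set without flower 1. Its ranks were unremarkable, at percentile 55.4 in flower 1 and 28.5 in flower 2. The others lay at chr7:8656368-8656710 (343 bp), chr9:2498356-2498688 (333 bp), chr19:47969407-47969737 (331 bp) and chr13:44770731-44771058 (328 bp). All 5 met seed 1, and that on chromosome 19 met both seed libraries. The libraries ranked the region on chromosome 7 very differently, at percentiles 17.1 (flower 1) and 84.4 (flower 2).

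Among shared regions, the highest by score over the 4 libraries lay at chr13:7359291-7359561. It was the top site of leaf 1 (274 bp, score 39.9) and of flower 2 (232 bp), and its sites in leaf 2 and flower 1 were 781 and 233 bp wide and above percentile 99.9. The region at chr18:45313994-45314168 followed, with sites of 175, 179, 191 and 207 bp in leaf 1, leaf 2, flower 1 and flower 2, so that here flower was the wider. The regions chr19:5356266-5357518, chr15:19588804-19592274 and chr18:16874309-16874550 came next. The longest shared leaf region was the one on chromosome 15, with sites of 3471, 3473, 3464 and 3466 bp in the 4 libraries, a span that hardly varied. The shared region at chr17:23596295-23597412 (1118 bp) was also stable in width, at 1122, 1118, 1127 and 1128 bp. The shared region at chr5:7353741-7354778 was not: its sites measured 1077 and 1038 bp in leaf and 825 and 759 bp in flower, at percentiles 89.2 and 96.6 in leaf and 82.3 and 87.6 in flower.

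Leaf and flower sites were distributed alike along the chromosomes. With the way from a chromosome end to the middle cut into 10 equal parts, the outermost part held 20.1% and 19.9% of the leaf 1 and leaf 2 sites and 20.3% and 20.2% of the flower 1 and flower 2 sites, and the innermost part held 3.11%, 3.24%, 3.03% and 2.91%. The density in the outer 20% at each end against the inner part, as a log2 ratio, was 1.68 and 1.65 in leaf (mean 1.66 ± 0.022, SD, n = 2) and 1.69 and 1.72 in flower (1.70 ± 0.024, SD, n = 2). The leaf mean was lower by 0.042, with an exact two-sided permutation p of 0.33, the smallest these libraries allow. The direction turned with the stricter lists (sites above the median score of their list), where leaf was 0.0066 higher. Both flower ratios exceeded both leaf ratios on 12 of 20 chromosomes (60%) and both leaf ratios exceeded both flower ratios on 1 (5%), chromosome 17. The regions without a counterpart followed the same profile. Their log2 ratio was 1.68 in leaf and 1.74 in flower, against 1.72 for the shared regions of either tissue, and in leaf it was above that of the shared regions on 5 of 20 chromosomes and in flower on 11. The pooled profile did not hold on chromosome 13, where the inner part was the denser in all 4 libraries. Its outer-to-inner ratio, not on the log2 scale, was 0.852 in leaf 1, 0.880 in leaf 2, 0.866 in flower 1 and 0.863 in flower 2.

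**Figure D4:**
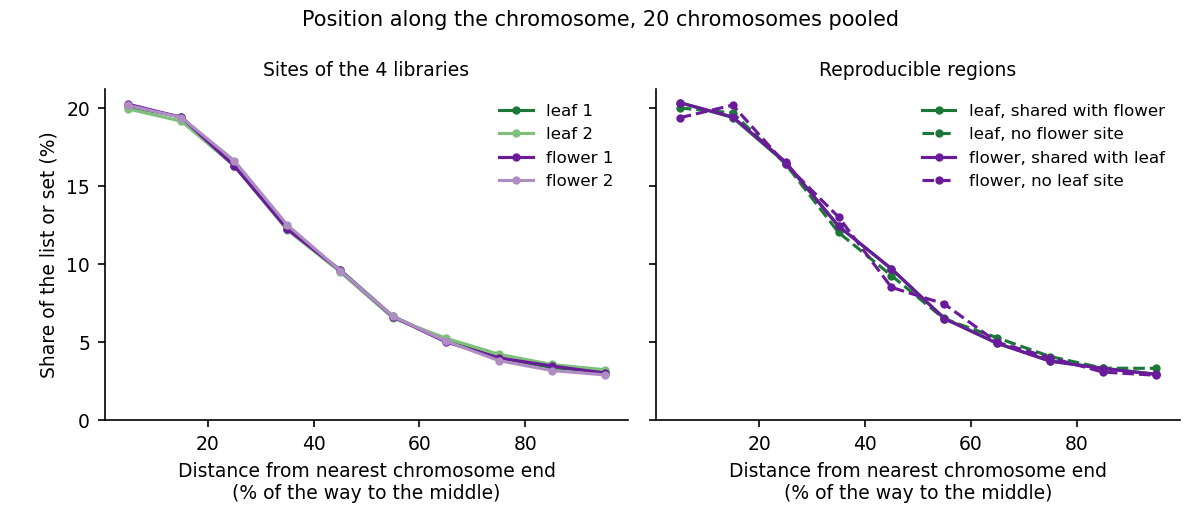
Share of each list (left) or set of reproducible regions (right) in 10 equal parts of the way from the nearest chromosome end to the middle of the chromosome (horizontal axis, percent of the way), 20 chromosomes pooled. The curves of the 4 libraries overlie each other, from about 20.1% in the outermost part of leaf 1 to 3.11% in the innermost, and so do those of the sets with and without a counterpart.

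No chromosome stood out for regions found in a single tissue of the pair. The leaf regions without a flower site made up between 25.0% (chromosome 6) and 27.4% (chromosome 3) of the leaf regions of a chromosome, and the flower regions without a leaf site between 8.24% (chromosome 15) and 10.3% (chromosome 19) of its flower regions. A chromosome's share of all sites differed between leaf and flower by -0.044 (chromosome 11) to 0.038 (chromosome 9) on the log2 scale, and 0 of 20 chromosomes passed in either direction (limma, smallest adjusted p = 0.0764, 7 at an unadjusted p under 0.05, background 0% called). Chromosome 11 held 3797 and 3672 leaf sites and 2587 and 3179 flower sites.

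In most windows of 1 Mb the tissue means lay close to each other. Of 905 windows with a mean of at least 5 sites, 0 passed an adjusted p of 0.05 in limma in either direction (0% called), while 82 higher in leaf (9.06%) and 79 higher in flower (8.73%) had an unadjusted p under 0.05. Either share alone is above the fraction of 0.05 that windows without a difference would give. With 2 libraries per tissue, the lack of a window that passed does not show that the tissues were alike. Values are log2 shares of a library's sites with 0.5 sites added, which scales each library by its own list length. The tissue means lay within 1.25-fold of each other in 762 windows (84.2%) and within 2-fold in 891 (98.5%). Both leaf libraries lay above both flower libraries in 227 windows (25.1%), and below them in 204 (22.5%).

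The window with the smallest p began at 23000001 on chromosome 17. It held 35 and 36 leaf sites and 51 and 51 flower sites in the far shorter flower lists, a leaf minus flower difference of -0.94 ± 0.13 (log2, SE, limma adjusted p = 0.0861). The 51 sites in each flower library were unequal shares, since flower 1 is the shorter list. The difference of the window was -0.79 without flower 1, -1.10 without flower 2, -0.91 without leaf 1 and -0.97 without leaf 2. It passed the threshold without each of the 4 libraries in turn, with the lone library of a tissue assumed to vary like the others (limma adjusted p between 6.3e-10 and 0.000145), and with the stricter lists (-1.39, limma adjusted p = 0.00454). It did not pass with equal list lengths (-1.04, limma adjusted p = 0.251) or without the trend in limma (adjusted p = 0.201). It holds the highest-ranked flower region without a leaf site and the stable shared region of 1118 bp described above. Within it, the 100 kb that begin at 23500001 had the most flower regions without a leaf site of any such stretch, 9 of 23 flower regions, with 12 and 15 leaf sites and 30 and 26 flower sites. Those 9 regions had a median score percentile of 77.3, 2 of them met seed and 2 met root. The root lists, the shortest of the series, held 12 and 11 sites in this stretch, so its density of sites was not particular to flower.

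Other windows with more of the flower than of the leaf sites began at 5000001 on chromosome 15, 34000001 on chromosome 13, 6000001 on chromosome 11 and 24000001 on chromosome 12, with differences of -0.28, -0.24, -0.29 and -0.96. Their adjusted p in limma was 0.0902 for chromosome 15 and 0.122 for the others. The window on chromosome 12 held 19 and 29 leaf sites and 31 and 38 flower sites, and its 100 kb from 24200001 held 7 flower regions without a leaf site, of which 0 met seed. In that stretch the libraries listed 5 and 12 leaf sites, 17 and 24 flower sites and 9 and 5 root sites, and 1 of the 7 regions met root. The third 100 kb named for flower, from 49900001 on chromosome 4, held 6 such regions among 18. It had 26 and 25 leaf, 22 and 30 flower and 1 and 1 root sites.

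On the leaf side the windows with the smallest p began at 15000001 and 26000001 on chromosome 2, 34000001 on chromosome 6, 22000001 on chromosome 7 and 39000001 on chromosome 18, each with a limma adjusted p of 0.122. The largest of these differences was on chromosome 7, 1.37 ± 0.28 (log2, SE), but leaf 1 listed 34 and leaf 2 listed 63 sites there, against 13 and 13 in flower, and without leaf 2 the difference was 0.92. The window on chromosome 18 held 79 and 90 leaf sites and 33 and 51 flower sites. The 100 kb with the most leaf regions lacking a flower site began at 55000001 on chromosome 1, with 19 of 41 leaf regions, 44 and 42 leaf sites and 19 and 26 flower sites. Next came 3300001 on chromosome 4, with 16 of 39, and 50700001 on chromosome 1, with 14 of 25. Those 19 regions were of middling rank, with a median score percentile of 38.5 and a highest of 57.3, and 8 of them met seed.

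**Figure D5:**
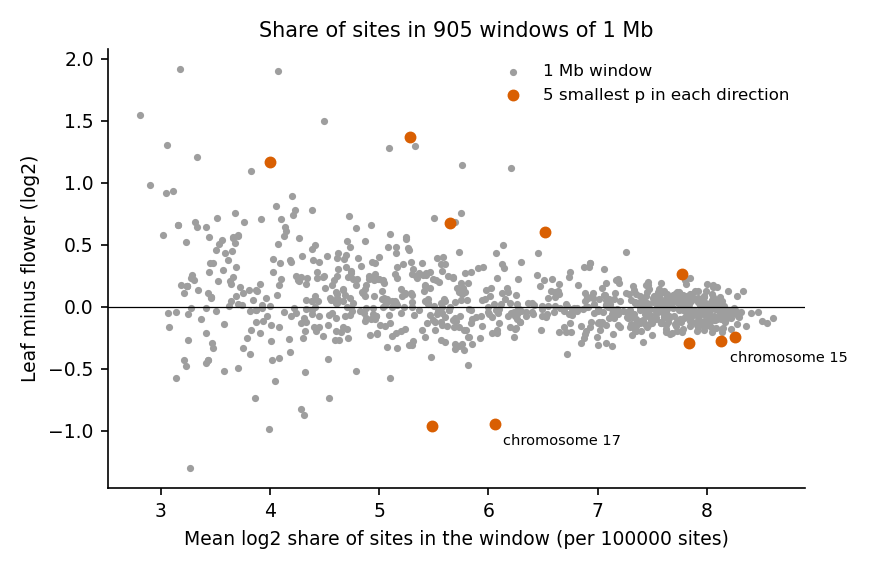
Leaf minus flower difference in the log2 share of sites (vertical axis) against the mean log2 share of the tissues (horizontal axis, per 100000 sites) for 905 windows of 1 Mb. Orange points are the 5 windows with the smallest p in each direction, of which 0 passed an adjusted p of 0.05 in limma, and the 2 named by chromosome have the smallest adjusted p, 0.0861 on chromosome 17 and 0.0902 on chromosome 15.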

How the data were processed

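Short DNA released by MNase (under 100 bp, nuclei digested for 10 min) was sequenced from 2 leaf and 2 flower libraries. Enzyme amounts, in units, were 0.01 at the low, 0.03 at the middle and 0.1 at the high level. These levels were the same for leaf and flower. The submitters' processing notes name Trimmomatic 0.36 and BWA 0.7.15-r1140. How sites were called, with which cutoff and on which build, is not stated there, in the labels or in the lists. The deposited leaf and flower lists give start and end per site and a score of undefined scale, used only as a percentile within its list. The root lists have no score. No list has reads, so depth and its precision are unknown. Repeated lines in the root lists were removed, and starts were read as counting from 0.

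Overlaps were computed in Python 3.11.15. Shares per window and chromosome were compared with limma 3.58.1 (Benjamini-Hochberg, 0.05, trend across windows only), and values per library with exact permutation tests. The window fit was also run on simulated counts with a chosen spread between libraries. That run does not show what differences these libraries could detect. Named regions were the 5 highest by mean score percentile and the 5 longest of each set. Named windows were the 5 of 1 Mb with the smallest p per direction and the 3 of 100 kb with the most regions lacking a counterpart. The regions and tests were chosen with earlier results of these data known.

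Same-numbered leaf and flower libraries did not deviate together over windows (r = -0.33), and the labels do not say that a number marks a shared batch. Alternatives changed the list length, score threshold, overlap rules, window size, pseudocount and libraries used.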

Additional observations from a re-analysis of the deposited data

How the results depend on the processing

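Set sizes depended on the lists and on what excludes a region. With only reproducible regions excluding, 31443 leaf and 6859 flower regions had no counterpart, with equal list lengths 7512 and 5263, and with the stricter lists, sites above the median score of their list, 8027 and 2015, beside 12888 leaf and 13151 flower regions that were shared. Leaving out a library gave 20429 to 26572 leaf and 4900 to 12901 flower regions without a counterpart, and 30852 to 40627 leaf and 32317 to 41335 flower regions that were shared. An intersection of 1 or 50 bp and an overlap of 50% of the shorter region kept all 4 counts within 1.5 times.

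Meeting a reproducible seed region in place of any seed site gave 66.3% and 30.1% for leaf regions with and without a flower counterpart, and 64.2% and 18.1% for flower. With equal list lengths the regions without a counterpart met seed in 73.8% (leaf) and 58.0% (flower), and leaving out a library gave 52.2 to 68.9% and 35.9 to 54.9%, with 88.9 to 91.4% and 88.7 to 90.2% for shared regions. Shared regions met seed more often under every one of these settings.

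No window passed limma's threshold with a pseudocount of 1, all windows that hold a site, windows of 2 Mb, no trend or equal list lengths, and windows passed under all other alternatives run. These were 1 higher in flower with a pseudocount of 2, with a mean of at least 20 sites, or with the stricter lists, and 5 higher in leaf and 3 in flower with windows of 0.5 Mb. Leaving out a library gave 0 to 74 higher in leaf and 4 to 44 in flower, most of them without flower 1 (74 and 44) or flower 2 (69 and 44), where the lone library is assumed to vary like the leaf pair. With the replicate number as a block, 2 windows passed higher in leaf and 1 in flower. With crossed numbers, chosen after seeing the data because the pairing correlation was negative, 6 and 2 passed. For chromosomes 0 passed under every setting. For width and outer-to-inner ratio the replicate block left the differences at 26 bp and -0.042, where swaps cannot go below an exact p of 0.5. Leaving out a library gave 20.5 to 31.5 bp and -0.058 to -0.025, and the outer-to-inner difference reversed, to 0.0066, only with the stricter lists. Among the named regions, the 5 longest flower regions without a leaf site lost 3 members with the stricter lists. The unknown read depth limits every statement on an absent site.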
